A study of Mus musculus with 32 samples.

Results

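The genes that encode the enzymes of cholesterol and fatty acid synthesis were examined in lungs and primary tumors of *Clic4* knockout (KO) and wildtype (WT) mice. The set held 29 genes, listed by name for their function with earlier results of these data known. All 29 were found by symbol among the 29511 genes of the count table. The set was made of 19 enzymes of the sterol branch, 4 genes of sterol sensing, regulation and transport (*Srebf1*, *Srebf2*, *Insig1* and *Stard4*), and 6 genes of the fatty acid branch (*Acly*, *Acaca*, *Fasn*, *Elovl6*, *Scd1* and *Scd2*). The question put to the data was how the sterol branch compared with the fatty acid branch in each tissue and each host.

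RNA-seq libraries were made from 32 samples of FVB/N mice. Primary tumors were taken 14 days after 6DT1 cells, a mouse mammary tumor line of the same strain, had been grafted orthotopically into the mammary fat pad of 6 WT hosts and 6 KO hosts. Lungs of tumor-bearing mice were taken at the same time, before metastases, from 6 WT and 6 KO mice, and control lungs came from 4 WT and 4 KO mice without a graft. Hosts were young adult virgin females bred from heterozygous parents, and the text of the study does not say which samples were littermates.

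*Clic4* encodes a chloride intracellular channel family protein, and the KO hosts lack it in every cell from birth, so that changes that arise with the tumor and those that were there before it could be parted only through the control lungs. The 6DT1 cells carry *Clic4* in both hosts, and a tumor library mixes their RNA with that of host cells. Control and 14-day lungs are different animals. Whether a tumor and a 14-day lung came from the same mouse is not stated, and the main fits took all samples as separate animals. Each sample is a piece of whole tissue, in which fewer cells of a type and less RNA per cell cannot be told apart.

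The libraries held 4446323 to 8318711 counts assigned to genes, with a median of 5384934. *Clic4* was at 206 to 280.2 CPM (counts scaled to library size) in KO lungs and at 590.4 to 857 CPM in WT lungs. The deletion removes a region around the second exon, so that reads from the rest of the gene are still counted in KO mice. In tumors *Clic4* was at 245 to 281 CPM in KO hosts and 293 to 321 CPM in WT hosts. Summed markers of alveolar type 2 cells, the lipid-rich surfactant cells of the lung, were at 10470 to 14882 CPM in lungs and 136.7 to 169.5 CPM in tumors, where *Lamp3* was at 0 in every library.

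Cholesterol is built from acetyl-CoA through mevalonate, farnesyl diphosphate, squalene and lanosterol, and the last enzymes of the path turn lanosterol into cholesterol. Fatty acids start from the same acetyl-CoA, which *Acly* supplies from citrate, and are built by *Acaca* and *Fasn*, lengthened by *Elovl6* and made unsaturated by *Scd1* and *Scd2*. SREBP transcription factors, encoded by *Srebf1* and *Srebf2*, drive both branches when membrane sterol is low, with *Srebf2* acting mostly on the sterol genes and *Srebf1* mostly on the fatty acid genes, and INSIG1 holds their precursors in the endoplasmic reticulum when sterol is plentiful. In the lung, fatty acid synthesis in alveolar type 2 cells feeds the phospholipids of surfactant.

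Levels of different genes were compared in FPKM, a fragment count scaled by transcript length and library size. In lung, 4 of the 6 fatty acid genes stood above all other members. In WT control lungs *Scd1*, a stearoyl-CoA desaturase, was at 207 ± 43.9 FPKM (mean ± SD, n = 4) and its relative *Scd2* at 119 ± 9.81 FPKM. *Acly*, at 76.5 ± 3.19 FPKM, and *Fasn*, the fatty acid synthase, at 68.4 ± 11.4 FPKM, came next and did not differ beyond their spread. *Acaca*, the acetyl-CoA carboxylase, was at 28.3 ± 3.91 FPKM, among the higher sterol enzymes, and *Elovl6*, the elongase of palmitate, at 2.65 ± 0.196 FPKM was the least abundant of all 29.

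Among the sterol enzymes the highest level in WT control lungs was that of *Fdps*, which makes farnesyl diphosphate, at 42.5 ± 5.76 FPKM, followed by *Hmgcs1*, the HMG-CoA synthase, at 31.04 ± 2.51 FPKM and the phosphomevalonate kinase *Pmvk* at 31.05 ± 3.77 FPKM, which did not differ from each other beyond their spread. The lowest was *Hsd17b7*, a keto reductase of the late sterol path, at 4.21 ± 1.25 FPKM, which overlapped with *Mvd* at 5.25 ± 0.444 FPKM. Of the regulators, *Insig1* (30.5 ± 4.55 FPKM) and *Srebf1* (29.2 ± 1.92 FPKM) were within their spread of each other and both stood above *Srebf2* (15.8 ± 1.90 FPKM) and *Stard4* (7.03 ± 0.508 FPKM), which encodes a cytosolic sterol carrier.

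**Figure D1:**
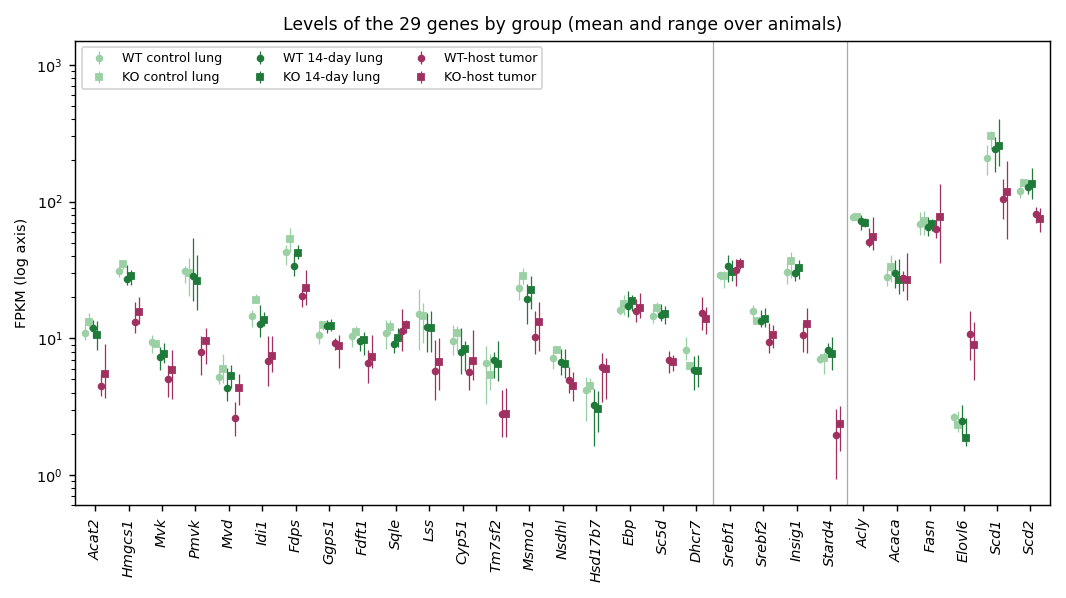
FPKM of the 29 genes on a log axis, as mean (point) and range (line) over the animals of each of the 6 groups, with sterol enzymes on the left, the sensing and transport genes in the middle and fatty acid genes on the right. *Scd1*, *Scd2*, *Acly* and *Fasn* stand at the top in lung, and in *Stard4*, *Pmvk* and *Insig1* the tumors lie below the lungs.

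The lungs were compared first. In tumor-bearing mice at 14 days, compared with control lungs and averaged over both genotypes, 8 of the 19 sterol enzymes were lower and none was higher at an FDR of 0.25 with no fold limit. Of the 6 fatty acid genes 1, *Acly*, was lower, and 0 of the 4 sensing and transport genes were called in either direction. Of all 16029 genes tested in lungs, 2.31% were called lower and 2.48% higher, 4.80% in all. The members were chosen with earlier results of these data known, so these shares are a background and not a test. The changes were small: the median log2 fold change was -0.21 over the 19 sterol enzymes, -0.07 over the 6 fatty acid genes and 0.004 over all genes tested. With 1 lung left out the fatty acid median lay between -0.10 (without KO lung 3) and -0.05 (without KO control lung 4). All 29 members passed the filter on low counts in every fit.

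*Hsd17b7* (ENSMUSG00000026675, chromosome 1 from 169949535 to 169969241, minus strand, GRCm38) had the smallest p of the set. It was at 10.7, 9.54, 9.96 and 11.4 CPM in the 4 WT control lungs and at 6.96 to 9.56 CPM, with a median of 8.64, in the 6 WT lungs at 14 days. In KO mice the 4 control lungs were at 10.9, 14.3, 13.7 and 13.0 CPM and the 6 lungs at 14 days at 5.26 to 10.3 CPM, with a median of 8.302. The KO groups did not overlap, and the WT groups overlapped in their edge values only. The fall over both genotypes was 1.37-fold (log2 fold change -0.46, SE 0.10, edgeR quasi-likelihood test, FDR 0.0439).

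*Idi1* (ENSMUSG00000058258, chromosome 13 from 8885501 to 8892451), the isomerase that makes the reactive isoprene unit, was at 38.4, 34.0, 40.8 and 41.6 CPM in WT control lungs and at 25.8 to 42.2 CPM (median 31.9) in WT lungs at 14 days. KO control lungs were at 50.5, 46.3, 48.9 and 52.4 CPM and KO lungs at 14 days at 30.1 to 41.7 CPM (median 35.7). All KO lungs at 14 days were below all KO control lungs, whereas the WT groups overlapped. Over both genotypes *Idi1* fell 1.27-fold (log2 fold change -0.34, SE 0.08, edgeR FDR 0.0864).

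*Mvk* (ENSMUSG00000041939, chromosome 5 from 114444269 to 114460591), the mevalonate kinase, was at 11.1, 12.4, 14.0 and 12.9 CPM in WT control lungs and at 8.54 to 10.8 CPM (median 9.10) in WT lungs at 14 days, without overlap. KO control lungs were at 13.0, 11.4, 10.98 and 11.5 CPM and KO lungs at 14 days at 7.02 to 11.8 CPM (median 9.91), which overlapped. The fall over both genotypes was 1.25-fold (log2 fold change -0.32, SE 0.09, edgeR FDR 0.117).

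The other 5 sterol enzymes called lower came from both ends of the path. They were *Fdps* (log2 fold change -0.30) and *Hmgcs1* (-0.23) of the mevalonate part, the squalene epoxidase *Sqle* (-0.26), the lanosterol demethylase *Cyp51* (-0.36) and the last reductase *Dhcr7* (-0.23), with edgeR FDRs of 0.118, 0.133, 0.216, 0.162 and 0.227. *Hmgcs1* had a mean of 93.5 CPM in WT control and 81.0 CPM in WT 14-day lungs, and of 104 CPM in KO control and 85.6 CPM in KO 14-day lungs. *Fdft1*, *Msmo1* and *Nsdhl*, which make squalene and strip methyl groups from the sterol ring, had log2 fold changes of -0.17, -0.25 and -0.21 but FDRs of 0.348, 0.377 and 0.397. *Ggps1*, which branches off to geranylgeranyl diphosphate for protein prenylation, was the sterol-path member with a positive value besides *Tm7sf2* and *Ebp* (log2 fold changes of 0.10, 0.14 and 0.02, none called).

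Of the fatty acid genes, *Acly* (ENSMUSG00000020917, chromosome 11 from 100476353 to 100528000) was at 278, 247, 272 and 268 CPM in WT control lungs and at 193 to 267 CPM (median 245) in WT lungs at 14 days. KO control lungs were at 287, 264, 288 and 287 CPM and KO lungs at 14 days at 225 to 259 CPM (median 248), without overlap. Its fall over both genotypes was 1.11-fold (log2 fold change -0.15, SE 0.05, edgeR FDR 0.181). Its log2 fold change was nearer to 0 than those of the 8 sterol enzymes called, a difference that was not tested. *Acly* stands where both branches take their carbon.

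The remaining 5 fatty acid genes were not called over both genotypes. *Acaca* had a log2 fold change of -0.08 (SE 0.05, edgeR FDR 0.609) and *Elovl6* one of -0.13 (SE 0.10, edgeR FDR 0.651). The 95% intervals were -0.26 to 0.24 for *Scd1*, -0.09 to 0.20 for *Scd2* and -0.20 to 0.06 for *Fasn*, which include no change and, for *Scd1*, also a fall as large as that of *Hmgcs1*. A smaller fall in the fatty acid branch than in the sterol branch was not tested gene by gene.

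The SREBP genes themselves had no call. *Srebf1* was at 70.2, 71.3, 76.9 and 66.5 CPM in WT control lungs, 52.6 to 73.6 CPM (median 66.4) in WT 14-day lungs, 75.9, 61.3, 61.5 and 64.6 CPM in KO control lungs and 62.8 to 81.6 CPM (median 70.9) in KO 14-day lungs. *Srebf2* was at 65.4, 85.5, 79.5 and 70.6 CPM in WT control lungs, 55.7 to 75.1 CPM (median 60.1) in WT 14-day lungs, 67.7, 60.6, 61.5 and 64.6 CPM in KO control lungs and 56.5 to 80.0 CPM (median 62.9) in KO 14-day lungs. The groups overlapped in both genes, with log2 fold changes over both genotypes of 0.01 and -0.10 (edgeR FDR 0.976 and 0.626).

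*Insig1* was at 66.1, 54.7, 67.1 and 71.1 CPM in WT control lungs, 52.8 to 67.1 CPM (median 61.7) in WT 14-day lungs, 61.2, 76.8, 86.0 and 78.6 CPM in KO control lungs and 61.3 to 77.6 CPM (median 65.6) in KO 14-day lungs. *Stard4* was at 30.96, 33.3, 34.1 and 31.7 CPM, 29.1 to 35.7 CPM (median 31.7), 26.5, 33.5, 33.3 and 34.0 CPM, and 27.6 to 37.2 CPM (median 32.4) in the same order of groups. Both genes overlapped between control and 14-day lungs, with log2 fold changes of -0.11 and 0.01 (edgeR FDR 0.555 and 0.975).

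**Figure D2:**
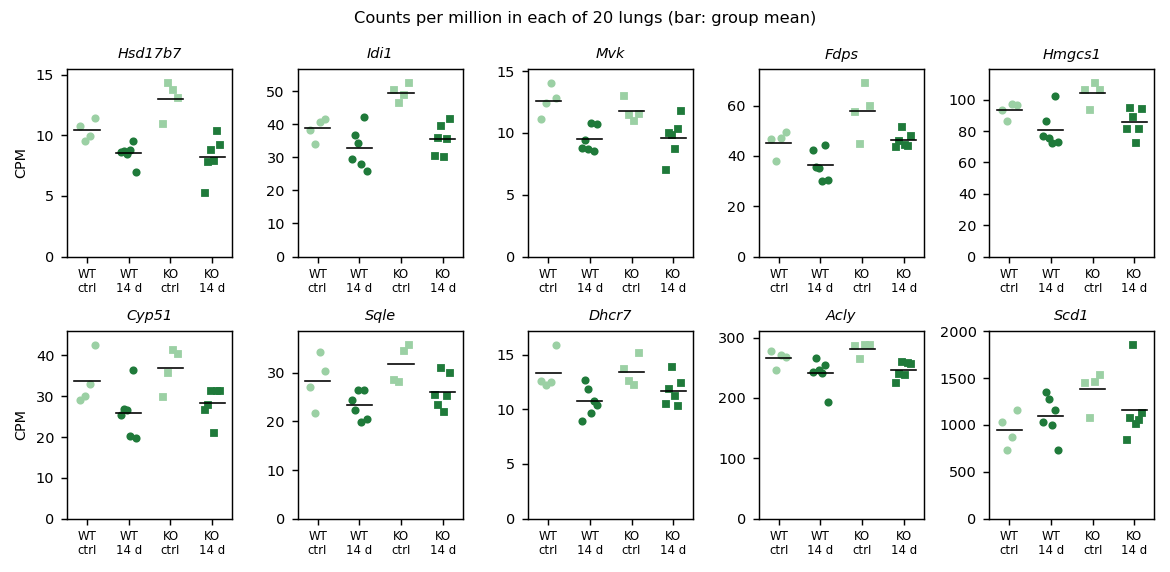
CPM of 8 sterol enzymes and of *Acly* and *Scd1* in each of the 20 lungs (points), with the group mean as a bar, and axes starting at 0. In the sterol enzymes and *Acly* the 14-day means lie below the control means in both genotypes, whereas the mean of *Scd1* at 14 days lies above the control mean in WT and below it in KO lungs.

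Cell type markers were set beside these values. Of the neutrophil list, all 4 genes tested were higher at 14 days (*S100a8*, *S100a9*, *Retnlg* and *Cxcr2*, log2 fold changes of 1.18 to 1.86), and the list summed to 24.0 to 260.5 CPM in 14-day lungs and 26.5 to 65.1 CPM in controls, with *Ly6g* at 0 in all KO controls. Of the 9 alveolar type 2 genes, 2 were lower (*Lamp3* -0.18 and *Napsa* -0.21) and 0 higher, with sums of 10470 to 13175 CPM at 14 days and 11138 to 14882 CPM in controls. All 9 lay below 0, with a median log2 fold change of -0.11 (edgeR, 4 at an unadjusted p under 0.05). *Marco* was the 1 alveolar macrophage gene of 7 called, at -0.91. Their part in the fall of the sterol enzymes was not tested.

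Calls among genes next to the set in the pathway were counted over both genotypes in the lungs. There 4.80% of all genes tested were called, 2.31% lower and 2.48% higher, and no list was tested against that share. Of 10 further genes of sterol synthesis, uptake and SREBP processing that could be tested, 0 were called in either direction (edgeR, with 1 at an unadjusted p under 0.05), and the median log2 fold change was -0.04. Of the 15 further lipogenic genes 2 were lower and 0 higher, namely *Elovl1*, an elongase of long-chain fatty acids (-0.33, SE 0.10, edgeR FDR 0.176), and *Lpin1*, a phosphatidate phosphatase (-0.28, SE 0.10, edgeR FDR 0.223). Of 10 genes of the LXR pathway and cholesterol efflux, *Mylip*, an LXR target that degrades lipoprotein receptors, was higher (0.34, SE 0.11, edgeR FDR 0.184). The 8 isoprenoid-branch genes tested held 0 calls (0 also at an unadjusted p under 0.05).

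Within each genotype fewer members passed. In KO lungs 3 members were lower at 14 days than in KO controls, *Hsd17b7* (1.56-fold, log2 fold change -0.64, SE 0.14, edgeR FDR 0.106), *Idi1* (1.38-fold, -0.46, SE 0.12, FDR 0.161) and *Acaca* (1.21-fold, -0.28, SE 0.07, FDR 0.192), and 0 were higher. Of all genes tested, 1.05% were called in this comparison, 0.275% lower and 0.780% higher. In WT lungs only *Mvk* was lower (1.304-fold, log2 fold change -0.38, SE 0.12, edgeR FDR 0.228) and 0 were higher, where 2.33% of all genes were called, 1.15% lower and 1.18% higher. In KO lungs the call of *Hsd17b7* was lost in 2 of the 10 fits that left out 1 lung, that of *Idi1* in 5 and that of *Acaca* in 6. Without KO control lung 2 or 3 the count in KO mice was 0, and without KO lung 1, KO lung 4 or KO control lung 4 it was 1. Of the cell type markers, *Cxcr2* alone was called in KO lungs (higher). In WT lungs 3 neutrophil genes were higher, and *Marco* of the alveolar macrophages, *Sftpb* and *Napsa* of the alveolar type 2 cells and *Col1a1* of the fibroblasts were lower (log2 fold changes of -1.42, -0.26, -0.28 and -0.73), and their part in the values of the members was not tested.

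The medians of the branches were set side by side in each host. In WT lungs the median log2 fold change was -0.18 over the sterol enzymes and 0.12 over the fatty acid genes, a difference of -0.30 between the branches. With 1 lung left out the WT fatty acid median lay between 0.07 (without WT control lung 2) and 0.12. In KO lungs the medians were -0.24 and -0.21, a difference of -0.02, which lay between -0.09 (without KO lung 1) and 0.02 (without KO lung 4) with 1 lung left out. The adipocyte markers, of which 7 of 8 could be tested, had medians of 0.43 in WT lungs (7 of 7 above 0) and -0.33 in KO lungs (2 of 7 above 0), with 0 called in either (edgeR, 1 and 2 at an unadjusted p under 0.05). Their sums were 68.8 to 86.5 CPM in WT control, 63.6 to 122 CPM in WT 14-day, 89.2 to 115 CPM in KO control and 54.8 to 107 CPM in KO 14-day lungs, and their part in the values of the fatty acid genes was not tested. Single lungs of a group varied in the mean log2(CPM + 1) of the sterol enzymes minus that of the fatty acid genes with an SD of 0.112. This score was -3.48 ± 0.083 (n = 6) in WT 14-day lungs and -3.27 ± 0.065 (n = 4) in WT control lungs, and -3.37 ± 0.151 (n = 6) and -3.35 ± 0.116 (n = 4) in KO lungs. Whether the difference between the branches differed between WT and KO mice was not tested. The interaction of genotype and tumor, the KO response of each gene minus its WT response in the same fit, had medians of -0.02 over the sterol enzymes and -0.26 over the fatty acid genes, which differed by 0.23. With 1 lung left out, the sterol median lay between -0.12 (without KO control lung 2) and 0.03 (without KO control lung 3), and the difference between 0.15 and 0.29 without the same lungs. Tested for each gene on its own, the interaction called 0 of the 29 members (edgeR, 3 at an unadjusted p under 0.05, 1 call by DESeq2), where 0.0499% of all genes were called, 0.0499% higher and 0 lower.

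*Acaca* (ENSMUSG00000020532, chromosome 11 from 84129672 to 84401651) came nearest. It was at 156, 132, 150.5 and 160.0 CPM in WT control lungs and 148 to 190.0 CPM (median 156) in WT 14-day lungs, and at 173, 190.1, 189 and 212 CPM in KO control lungs and 144 to 175 CPM (median 155) in KO 14-day lungs. KO control lungs were the high group, above all WT control lungs. The log2 fold change of the interaction was -0.41 (SE 0.11, edgeR FDR 0.300), and it passed the limit with DESeq2 and without KO control lung 1 or WT lung 3. *Elovl6* and *Acat2* had interaction values of -0.56 and -0.42 with FDRs of 0.463 and 0.532.

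The KO and WT lungs were also compared directly, with the same libraries as in the comparisons above. In control lungs *Acaca* was higher in KO mice (1.28-fold, log2 fold change 0.36, SE 0.08, edgeR FDR 0.168), the only call among the 29, beside 0.973% of all genes, 0.480% higher and 0.493% lower. At an unadjusted p under 0.05 (edgeR) 7 members were higher and 1 lower, beside 856 and 1004 of the 16029 genes tested. Of the sterol enzymes 16 of 19 were above 0 in KO control lungs, as were 6 of 6 fatty acid genes. *Idi1*, *Fdps* and *Scd1* had log2 fold changes of 0.36, 0.36 and 0.54 but FDRs of 0.300, 0.292 and 0.328. In 14-day lungs *Elovl6* was lower in KO mice (1.39-fold, log2 fold change -0.48, SE 0.13, edgeR FDR 0.238), again the only call, beside 0.861% of all genes, 0.393% higher and 0.468% lower. *Elovl6* was at 8.89 to 11.2 CPM (median 9.16) in KO and 10.4 to 16.7 CPM (median 12.7) in WT 14-day lungs, which overlapped. The medians of the branches were 0.14 and 0.14 in control lungs and 0.03 and 0.05 at 14 days, for the sterol and the fatty acid genes in that order. With 1 lung left out, the median over the sterol enzymes lay between 0.07 (without KO control lung 3) and 0.18 (without WT control lung 4) in control lungs and between 0.03 and 0.09 (without KO lung 4) at 14 days, and that over the fatty acid genes at 14 days between -0.05 (without KO lung 3) and 0.08 (without KO lung 1). Summed alveolar macrophage markers were at 461 to 675 CPM in KO and 246 to 440.3 CPM in WT control lungs, with *Chil3* called higher in KO (log2 fold change 0.89), 1 of 7 tested. In the same lungs *Cdk1*, 1 of 5 proliferation genes, was lower in KO (-1.41), with all 5 below 0 and sums of 68.0 to 84.6 CPM in KO and 62.0 to 166 CPM in WT. The 6 T and NK cell genes were all below 0 (median -0.45), with 0 called (edgeR, 2 at an unadjusted p under 0.05) and sums of 24.2 to 45.2 CPM in KO and 39.6 to 55.2 CPM in WT control lungs. At 14 days 1 of the 7 alveolar macrophage genes, *Marco*, was higher (0.86), as was 1 of 5 fibroblast genes, *Col1a1* (0.65), and 2 of 4 cardiac muscle genes, *Myh6* and *Tnnt2*, were lower (-0.66 and -0.57) in KO lungs. No gene of the remaining cell type lists was called in either comparison. Of these, the adipocyte genes had a median of 0.43 in control lungs (6 of 7 above 0), with sums of 89.2 to 115 CPM in KO and 68.8 to 86.5 CPM in WT. At 14 days their median was -0.18 (7 of 7 below 0), with sums of 54.8 to 107 CPM in KO and 63.6 to 122 CPM in WT. The part of all these cells in the values of the members was not tested.

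Each of these single calls rested on few libraries. The call of *Acaca* in control lungs was lost without KO control lung 2, 3 or 4 or WT control lung 2 or 3. That of *Elovl6* at 14 days was lost without KO lung 2, 3, 4, 5 or 6 or WT lung 2, 3, 4 or 5. The call of *Mvk* in WT lungs was lost without WT lung 1, 2, 5 or 6 or any 1 WT control lung, and the number of members called rose to 2 without WT lung 3 and to 3 without WT lung 5.

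**Figure D3:**
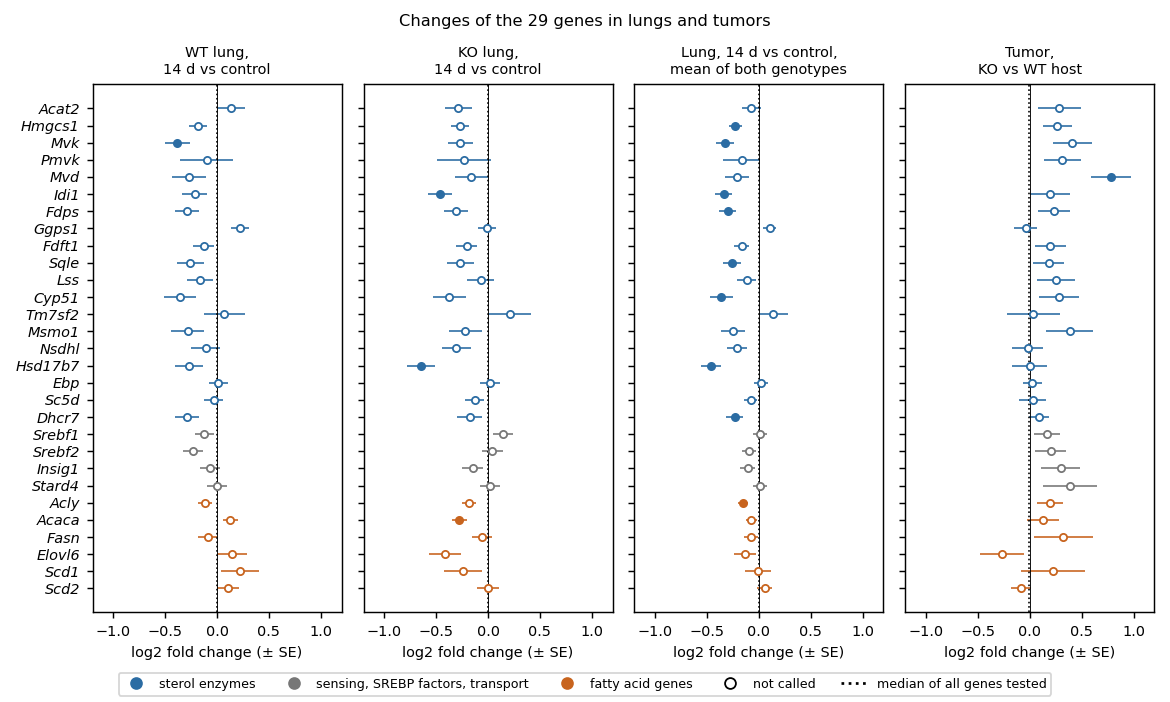
Log2 fold change (point) with its SE (line) of the 29 genes in WT lungs, in KO lungs, in lungs over both genotypes and in tumors, where filled points mark genes called at the FDR limit of the comparison (0.25 in lungs, 0.05 in tumors). In the lungs most sterol enzymes lie to the left of the dotted median of all genes tested, and in the tumors *Mvd* alone is filled.

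Over both genotypes the fall of the sterol enzymes held best for 5 of them. *Hsd17b7*, *Idi1*, *Mvk*, *Fdps* and *Hmgcs1* remained below the limit in each of the 20 fits that left out 1 lung. *Dhcr7* was lost in 14 of them, *Sqle* in 12, *Acly* in 7 and *Cyp51* in 2. The number of members called was 5 without KO control lung 3 or WT control lung 4, and at an FDR of 0.05 only *Hsd17b7* was left. None of the 9 members reached a 1.5-fold change, so that 0 were called where that limit was added.

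In primary tumors the share of members called was near that of all genes tested. Between KO and WT hosts 1 of the 29 members was called at an FDR of 0.05, the sterol enzyme *Mvd*, which was higher in tumors from KO hosts, beside 2.51% of the 13830 genes tested, 2.02% higher and 0.492% lower. The median log2 fold change was 0.20 over the sterol enzymes, 0.16 over the fatty acid genes and -0.01 over all genes tested, a difference of 0.04 between the branches. Leaving out 1 tumor moved the sterol median between 0.10 (without KO-host tumor 3) and 0.30 (without WT-host tumor 6), the fatty acid median between 0.0085 (without KO-host tumor 2) and 0.23 (without KO-host tumor 5) and the difference between -0.02 (without WT-host tumor 2) and 0.15 (without KO-host tumor 2). The mean log2(CPM + 1) of the sterol enzymes minus that of the fatty acid genes was -3.80 ± 0.296 (n = 6) in KO-host and -3.97 ± 0.104 (n = 6) in WT-host tumors, which overlapped. Of the 19 sterol enzymes 3 had a value below 0, as had 2 of the 6 fatty acid genes and 52.3% of all genes tested.

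*Mvd* (ENSMUSG00000006517, chromosome 8 from 122433601 to 122443422, minus strand), the mevalonate diphosphate decarboxylase, was at 2.93 to 5.16 CPM (median 4.11) in the 6 tumors from WT hosts and at 5.32 to 9.22 CPM (median 7.01) in the 6 from KO hosts. All KO-host tumors were above all WT-host tumors. The difference was 1.72-fold (log2 fold change 0.78, SE 0.19, edgeR FDR 0.0412). The libraries held 15 to 47 counts of *Mvd*, and its FDR passed the limit no longer without KO-host tumor 1, 2, 3 or 6 or WT-host tumor 2, 3, 5 or 6 (highest FDR 0.120), nor without the filter on low counts or with offsets for GC content. Over the 12 fits that left out 1 tumor the log2 fold change lay between 0.69 and 0.87.

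The next members in order of p were not called. *Mvk* was at 4.18 to 7.56 CPM (median 6.79) in WT-host and 5.60 to 10.8 CPM (median 8.89) in KO-host tumors, with a log2 fold change of 0.41 (SE 0.19, edgeR FDR 0.314). *Hmgcs1* was at 34.9 to 57.9 CPM (median 36.5) and 38.2 to 62.5 CPM (median 48.2), with a log2 fold change of 0.27 (SE 0.14, edgeR FDR 0.385). The groups of both genes overlapped.

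*Acly* was at 161 to 229 CPM (median 176) in WT-host and 162 to 297 CPM (median 194) in KO-host tumors (log2 fold change 0.19, SE 0.13, edgeR FDR 0.508), and *Elovl6* at 38.7 to 77.5 CPM (median 48.1) and 29.5 to 70.3 CPM (median 41.9) (log2 fold change -0.27, SE 0.21, edgeR FDR 0.603). Both overlapped. With 1 tumor left out the log2 fold change of *Acly* lay between 0.07 (without KO-host tumor 3) and 0.27. That of *Elovl6* lay between -0.43 (without KO-host tumor 3) and -0.14 (without WT-host tumor 4), and was -0.16 without KO-host tumor 5 or WT-host tumor 6. *Srebf1* was at 67.6 to 97.0 CPM (median 79.4) in WT-host and 64.7 to 117 CPM (median 89.1) in KO-host tumors, and *Srebf2* at 36.7 to 65.0 CPM (median 43.2) and 40.6 to 61.7 CPM (median 55.3). Neither SREBP gene was called, nor *Insig1*, at 17.2 to 31.5 and 19.5 to 38.6 CPM, nor *Stard4*, at 4.53 to 15.6 and 7.40 to 13.7 CPM.

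*Fasn* and *Scd1*, singled out after their values were seen, spread more widely in KO-host than in WT-host tumors. *Fasn* was at 588, 1081 and 972 CPM in KO-host tumors 1, 2 and 3 and at 424, 299 and 304 CPM in tumors 4, 5 and 6, and at 393 to 580 CPM in WT-host tumors. *Scd1* was at 549, 980 and 915 CPM in the first 3 of these, at 289, 413 and 254 CPM in the others and at 347 to 713 CPM in WT-host tumors. The SD of *Fasn* was 339.9 CPM in KO-host and 71.9 CPM in WT-host tumors, and that of *Scd1* 313 and 146 CPM. *Acly* (46.4 and 24.7 CPM) and *Acaca* (54.7 and 10.9 CPM) also had the larger SD in KO-host tumors, whereas that of *Scd2* was 55.2 and 46.3 CPM and that of *Elovl6* 14.0 and 16.7 CPM. KO-host tumors 1, 2 and 3 were also the 3 shallowest libraries of their group (4542719 to 4649759 counts, against 4993668 to 6518501), and the part of depth or of any handling order behind the numbers was not tested.

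The summed adipocyte markers, 8 genes that include *Adipoq* and *Plin1*, were highest in the same 3 KO-host tumors. They were at 485, 763 and 490.4 CPM in KO-host tumors 1, 2 and 3, at 184, 273 and 319 CPM in tumors 4, 5 and 6, and at 167 to 338 CPM in WT-host tumors, and the order was not kept within tumors 4, 5 and 6 or in WT hosts. There tumor 6 had the highest *Fasn* and *Scd1* (580 and 713 CPM) at an adipocyte sum of 231 CPM, and tumor 2 the lowest *Fasn* (393 CPM) at a sum of 278 CPM. Other WT-host tumors kept to the order more closely. Tumor 1, with the highest sum (338 CPM), had *Fasn* at 528 and *Scd1* at 612 CPM. Tumor 3, with the lowest sum (167 CPM), had *Fasn* at 454 CPM and the lowest *Scd1* (347 CPM). In the tumors none of the 8 genes was at 0 in a whole group. The median log2 fold change of the 8 was 0.89 and 0 were called (edgeR, 7 at an unadjusted p under 0.05), and their part in the values of *Fasn* and *Scd1* was not tested. With these 3 tumors left out, a choice made after the values were seen, 0 members were called and *Mvd* had a log2 fold change of 0.62 (edgeR FDR 0.260). Of the macrophage and T and NK cell markers, 1 of 6 (*C1qb*) and 2 of 6 (*Cd3d* and *Nkg7*) were higher in KO-host tumors.

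**Figure D4:**
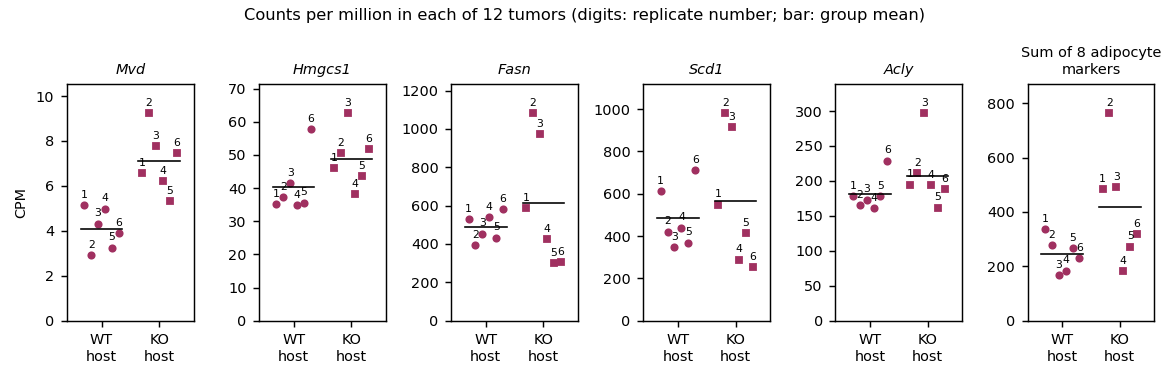
CPM of *Mvd*, *Hmgcs1*, *Fasn*, *Scd1* and *Acly* and the summed CPM of 8 adipocyte markers in each of the 12 tumors (points with replicate numbers, bars for group means, axes from 0). *Mvd* is parted by host, whereas in *Fasn*, *Scd1* and the adipocyte sum KO-host tumors 2 and 3 stand highest.

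Beside the set, 2 of the 10 LXR and cholesterol efflux genes were higher in KO-host tumors, *Ch25h*, which makes a hydroxylated cholesterol (log2 fold change 1.18, SE 0.19, edgeR FDR 0.00253), and *Nr1h3*, the oxysterol receptor LXR alpha (1.02, SE 0.21, edgeR FDR 0.0161). None of the 10 further sterol genes, 15 further lipogenic genes or 8 isoprenoid-branch genes was called in tumors (edgeR, 3, 2 and 0 at an unadjusted p under 0.05). The host effect in tumors minus that in 14-day lungs, which shares its libraries with both comparisons, was called in 0 of the 29 members (edgeR, 0 at an unadjusted p under 0.05), beside 1.06% of all genes, 0.802% higher and 0.262% lower.

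The same genes were then compared between tumors and lungs of WT mice at 14 days. Tumors had 8 members called lower and 2 higher, where a call asked for an FDR under 0.05 together with at least a doubling or halving of the level, beside 39.2% of the 16825 genes tested, 22.8% lower and 16.4% higher, and the share of members called was no higher than that background. The median log2 fold change was -0.68 over the sterol enzymes and -0.19 over the fatty acid genes, a difference of -0.49. With offsets for GC content the medians were -0.40 and 0.01, so that the direction of the fatty acid median depended on that setting.

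The sterol enzymes lower in tumors were *Pmvk* (3.44-fold, log2 fold change -1.78, SE 0.24), *Acat2* (2.52-fold), *Tm7sf2* (2.41-fold), *Lss* (2.10-fold) and *Sc5d* (2.10-fold, log2 fold change -1.07, SE 0.10), which span the path from acetoacetyl-CoA to the late ring reactions. In the other direction, *Dhcr7*, the final reductase, was 2.58-fold higher in tumors (log2 fold change 1.37, SE 0.10, edgeR FDR 5.85e-14). It was at 24.0 to 34.2 CPM in WT-host tumors and 8.92 to 12.7 CPM in WT lungs at 14 days, without overlap. *Hsd17b7* (1.81-fold, log2 fold change 0.85, edgeR FDR 4.34e-06) and *Sqle* (1.29-fold, log2 fold change 0.36, edgeR FDR 0.0159) were higher too but under the 2-fold limit. *Tm7sf2*, *Sc5d* and *Lss* no longer reached the 2-fold limit with GC offsets, nor *Lss* without WT lung 3.

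The sterol sensor and carrier were lower as well, *Stard4* 3.87-fold (log2 fold change -1.95, SE 0.17, edgeR FDR 8.35e-12) and *Insig1* 2.57-fold (-1.36, SE 0.14, edgeR FDR 2.64e-10). *Srebf1* and *Srebf2* stayed within the 2-fold limit at 0.33 and -0.45. In the fatty acid branch the desaturase *Scd1* was 2.23-fold lower in tumors (log2 fold change -1.15, SE 0.26, edgeR FDR 0.000157) and fell short of 2-fold with GC offsets, and the elongase *Elovl6* was 4.14-fold higher (2.05, SE 0.18, edgeR FDR 1.12e-11). *Elovl6* was at 38.7 to 77.5 CPM in WT-host tumors and 10.4 to 16.7 CPM in WT 14-day lungs. *Fasn* and *Acaca* did not pass the test, with log2 fold changes of 0.01 (SE 0.21) and 0.09 (SE 0.11).

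Of the further lipogenic genes 9 of 15 were lower in tumors and 1, *Pnpla3*, higher. Those lower with the smallest p were *Elovl5* (log2 fold change -2.07), *Gpam*, the first enzyme of glycerolipid synthesis (-2.49), and *Mid1ip1*, an activator of acetyl-CoA carboxylase (-2.12). Of the 10 further sterol genes tested, 1 was higher, *Mbtps2*, a protease that releases SREBP from the membrane (1.135), and 1 was lower. Of the LXR genes, *Nr1h3*, *Cyp27a1* and *Abcg1* were lower (-2.95, -2.25 and -1.01). In the isoprenoid branch *Fntb*, a farnesyltransferase subunit, was higher (1.38). All 9 alveolar type 2 markers were lower in tumors and 7 of the 8 adipocyte markers higher, and the part of cell composition in these tissue differences was not tested.

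Members of the set varied together from animal to animal. After the group means were taken away, the median correlation between 2 sterol enzymes across the 20 lungs was 0.26 (171 pairs), that between 2 fatty acid genes 0.35 (15 pairs) and that between a sterol enzyme and a fatty acid gene 0.23 (114 pairs), where that of all pairs of genes tested was 0.0045. Across the 12 tumors the medians were 0.36, 0.66 and 0.48, against 0.0035 for all pairs. The tumor values pool both hosts and were not taken for each host alone. The mean log2(CPM + 1) of the fatty acid genes had an SD of 0.45 in KO-host and 0.18 in WT-host tumors. These correlations describe the libraries: their points share depth and tissue composition.

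Single members stood at the edges of that pattern. In lungs *Msmo1*, *Sqle*, *Cyp51* and *Fdps* had median correlations of 0.55, 0.52, 0.52 and 0.51 with the other sterol enzymes, and *Insig1* one of 0.50, whereas *Mvk* and *Tm7sf2* were at -0.03 and -0.11. *Acly* was closer to the sterol enzymes (0.51) than to the other fatty acid genes (0.37) in lungs, and *Scd2* was at -0.14 and 0.22. *Srebf1* and *Srebf2* were at -0.03 and 0.0045 with the sterol enzymes in lungs and at 0.33 and 0.56 in tumors.

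**Figure D5:**
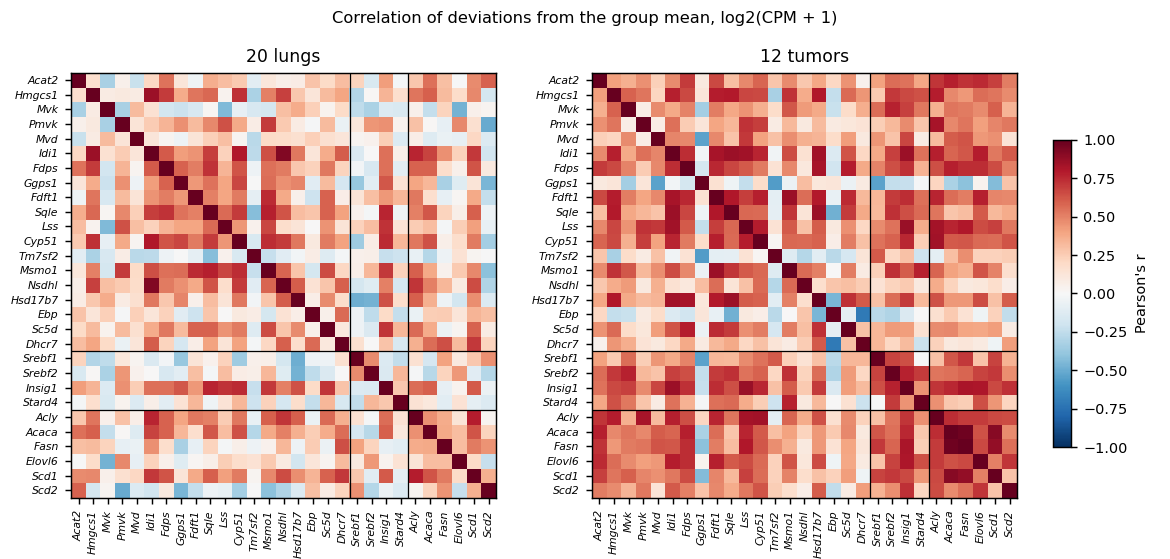
Pearson's r between each pair of the 29 genes, on the deviations of log2(CPM + 1) from the group means, across the 20 lungs (left) and the 12 tumors (right), with lines that part sterol enzymes, sensing and transport genes and fatty acid genes. The fatty acid block in the tumors is the most uniformly red, and in the lungs *Tm7sf2* and *Mvk* hold few red cells.

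The promoters of the members were read for short motifs known from sterol-regulated genes, namely a form of the sterol regulatory element (TCACNCCAC), the CCAAT box bound by NF-Y, the GC box (GGGCGG) bound by Sp1 and the palindromic E-box (CACGTG). The 250 bases before the RefSeq start of transcription were searched on both strands. The promoters, of GRCm38.p6, held 23 of the 29 members. RefSeq starts can differ from the GENCODE positions given for the genes. The windows of *Idi1*, *Hsd17b7* and *Elovl6* reach past the GENCODE start into the gene, and all 3 matches in *Idi1* lie there. CCAAT was found in 15 of 16 sterol enzymes, in all 3 of *Srebf1*, *Srebf2* and *Insig1*, in 1 of 4 fatty acid genes (*Fasn*), and in 37.5% of the 27025 genes in the table. GGGCGG was found in 14 of 16, 3 of 3 and 1 of 4 (*Acly*), and in 35.4% of all genes. TCACNCCAC was in *Hmgcs1* alone, and in 1.23% of all genes, and CACGTG in *Hsd17b7*, *Sc5d*, *Dhcr7* and *Insig1*, and in 6.86% of all genes.

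The windows of 3 sterol enzymes that were lower in 14-day lungs, of the 1 that was higher in KO-host tumors and of 2 fatty acid genes are shown, 5′ to 3′ up to the base before the start, with the matches to the 4 motifs on either strand in capitals.
Hsd17b7 (chr1:169969206-169969455, minus strand): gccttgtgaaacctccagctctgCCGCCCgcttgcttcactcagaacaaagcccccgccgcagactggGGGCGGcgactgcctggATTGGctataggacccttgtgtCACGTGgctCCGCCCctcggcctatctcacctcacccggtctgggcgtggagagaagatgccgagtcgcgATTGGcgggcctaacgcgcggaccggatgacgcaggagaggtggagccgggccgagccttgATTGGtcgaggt
Idi1 (chr13:8885356-8885605, plus strand): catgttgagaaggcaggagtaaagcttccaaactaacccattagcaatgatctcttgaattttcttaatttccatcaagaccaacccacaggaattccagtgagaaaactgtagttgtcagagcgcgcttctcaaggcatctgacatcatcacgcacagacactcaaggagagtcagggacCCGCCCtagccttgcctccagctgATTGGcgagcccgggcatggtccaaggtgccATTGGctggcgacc
Hmgcs1 (chr13:119690101-119690350, plus strand): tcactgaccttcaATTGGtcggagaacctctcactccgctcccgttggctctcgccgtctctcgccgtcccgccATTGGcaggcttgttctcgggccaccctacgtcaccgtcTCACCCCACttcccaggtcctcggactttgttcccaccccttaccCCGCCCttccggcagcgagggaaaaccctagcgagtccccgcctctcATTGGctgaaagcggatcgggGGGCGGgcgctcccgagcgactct
Mvd (chr8:122443423-122443672, minus strand): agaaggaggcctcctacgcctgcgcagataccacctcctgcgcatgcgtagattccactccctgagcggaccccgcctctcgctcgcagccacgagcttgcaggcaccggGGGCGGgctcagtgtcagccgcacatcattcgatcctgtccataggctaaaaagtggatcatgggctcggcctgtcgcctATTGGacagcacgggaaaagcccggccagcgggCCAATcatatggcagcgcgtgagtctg
Fasn (chr11:120824548-120824797, minus strand): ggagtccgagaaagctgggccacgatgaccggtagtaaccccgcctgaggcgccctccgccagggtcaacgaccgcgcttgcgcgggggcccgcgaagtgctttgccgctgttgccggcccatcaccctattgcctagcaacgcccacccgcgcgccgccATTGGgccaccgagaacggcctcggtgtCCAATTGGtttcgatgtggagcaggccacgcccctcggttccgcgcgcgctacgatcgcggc
Elovl6 (chr3:129532136-129532385, plus strand): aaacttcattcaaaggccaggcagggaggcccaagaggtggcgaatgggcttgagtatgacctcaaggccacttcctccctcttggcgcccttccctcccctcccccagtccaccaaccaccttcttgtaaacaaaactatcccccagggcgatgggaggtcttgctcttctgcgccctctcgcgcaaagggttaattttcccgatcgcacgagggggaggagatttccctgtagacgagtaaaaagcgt

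The matches to CCAAT read ATTGG where they lie on the other strand, as in 3 places in *Hmgcs1*, and those to GGGCGG read CCGCCC. *Hsd17b7*, the member with the smallest p in the lungs, held 7 matches and *Hmgcs1* 6, whereas *Idi1* and *Mvd* held 3 each. *Fasn* held 3, of which 2 share letters in a palindrome (CCAATTGG), and *Elovl6*, which was lower in KO than in WT lungs at 14 days and higher in tumors than in lungs, held 0. A match is a description of the letters, and a window without one does not speak to what binds there.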

How the data were processed

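Total RNA of snap-frozen lungs and tumors was sequenced from paired-end, stranded mRNA libraries. The authors aligned reads to GRCm38 with STAR and quantified genes with RSEM, and the annotation release is not given in the sources used here. The deposited table held expected counts per gene, already whole numbers, and the authors' second table held FPKM values, used only to compare levels between genes. Every value column was matched to a sample by its name.

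Counts were tested with the quasi-likelihood test of edgeR 4.0.16 (R 4.3.3, limma 3.58.1), with TMM scaling, filterByExpr and Benjamini-Hochberg adjustment (FDR) over all genes tested. One fit held the 12 tumors, 1 the 20 lungs with 4 group means, and 1 all 32 samples. Calls were made at an FDR of 0.05 in tumors and 0.25 in lungs, and between tissues at 0.05 with a 2-fold limit. The study's own gene lists also had a fold limit, 2-fold in tumors and 1.5-fold in lungs, which was run as an alternative. SE is the log2 fold change divided by the root of F. CPM were TMM-scaled over all 32 samples, and log2(CPM + 1) was used for branch scores and correlations. The scripts were tested on simulated data.

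The members and gene lists were chosen with earlier results of these data known. Full statistics are given for called members, or beyond 6 for the 3 with the smallest p in each of the sterol and fatty acid groups. Values in every animal, or the lowest, median and highest of groups over 5, are given for the 3 sterol and 2 fatty acid genes with the smallest p in the tumor comparison and in the lung comparison over both genotypes, and for *Srebf1*, *Srebf2*, *Insig1* and *Stard4*. Of other lists at most 3 called genes are named for each comparison. A result for a further gene is not reported here. *Clic4*, the spread of *Fasn* and *Scd1* in tumors, *Dhcr7* in tumors and genes named for context were chosen after their values were seen.

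Positions come from GENCODE M21 (29197 of 29511 genes matched) and promoters from RefSeq. Alternatives were DESeq2 1.42.0, its size factors in edgeR, other filters, limits and samples, a replicate block, offsets for GC content, and leaving out each sample in turn. Figures were drawn with matplotlib 3.10.9. Nothing in the labels says that samples of a group are littermates or not, so p-values measure the spread between these samples. All 72 pairs of replicates differed by more than sampling noise (chi-square per degree of freedom of 2.43 to 15.0). With 4446323 to 8318711 counts a library, a gene such as *Mvd* in tumors rests on 15 to 47 counts.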

Additional observations from a re-analysis of the deposited data

Results flagged for a closer look

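Of 174 groups of 4 to 6 samples, 1 for each gene and group, 14 held a sample that stood apart from the others by Dixon's criterion, and chance alone flags about 1 in 20 groups. In tumors of WT hosts these were *Hmgcs1* at 57.9 CPM and *Acly* at 229 CPM in tumor 6, *Dhcr7* at 34.2 CPM in tumor 3, all high, and *Mvk* at 4.18 CPM in tumor 5, low. In tumors of KO hosts *Fdft1* at 28.8 CPM, *Cyp51* at 38.1 CPM and *Acly* at 297 CPM were high in tumor 3. In WT lungs at 14 days *Pmvk* at 49.6 CPM and *Lss* at 56.5 CPM were high in lung 3 and *Acly* at 193 CPM was low in lung 6. *Scd1* at 1852 CPM was high in KO lung 3 at 14 days. Among control lungs *Dhcr7* at 15.9 CPM was high in WT lung 4, *Stard4* at 26.5 CPM low in KO lung 1 and *Acly* at 264 CPM low in KO lung 2. No explanation for these values was tested.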

How the results depend on the processing

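In lungs over both genotypes (9 members called, 8 of them sterol enzymes) 0 members reached 1.5-fold, 1 passed an FDR of 0.05, and leaving out 1 lung gave 5 to 10, with 5 without KO control lung 3 or WT control lung 4. In tumors (1 member) 0 were called without the low-count filter, with GC offsets, with a 2-fold limit, or without the 3 KO-host tumors with the highest adipocyte sums, an alternative chosen after seeing the data, where the branch difference was 0.42 and *Acly* had a log2 fold change of -0.0039, below 0 where it had been above. These tumors were also the 3 highest of their group in *Fasn* and *Scd1*, so that a lower fatty acid median without them follows from the choice. In WT lungs (1) 0 were called with DESeq2, without the filter, with GC offsets, at 1.5-fold, at an FDR of 0.05 or with the compared groups alone. In KO lungs (3) 1 was called at 1.5-fold and 0 at an FDR of 0.05. Between KO and WT lungs at 14 days (1) 2 were called with DESeq2 or GC offsets and 0 without the filter, at 1.5-fold, at an FDR of 0.05 or with the compared groups alone. In control lungs (1) 3 were called with DESeq2, 5 with the compared groups alone, and 0 without the filter, at 1.5-fold or at an FDR of 0.05. The interaction (0) gave 1 with DESeq2, and tumor against lung (10) gave 25 without a fold limit, where 6441 of the 16825 genes tested were higher and 6551 lower at an unadjusted p under 0.05, and 10 to 13 with 1 sample left out. Leaving out 1 sample gave 0 to 1 in tumors, 0 to 3 in KO lungs, 0 to 3 in WT lungs, 0 to 1 at 14 days, 0 to 1 in control lungs, 0 to 1 for the interaction, and a branch difference at 14 days of -0.028 to 0.101, the highest without KO lung 3. The causes were not tested.

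The replicate numbers name samples, and the main fits did not pair by them. In no comparison was every pair's correlation of deviations over 0.1, a limit set by choice. Between KO-host and WT-host tumors it lay between -0.29 and 0.11 (over 0.1 in 1 of 6 pairs), between KO and WT lungs between -0.09 and 0.25 at 14 days (2 of 6) and -0.22 and -0.05 in controls (0 of 4), and between 14-day and control lungs between -0.12 and 0.03 in KO (0 of 4) and -8.70e-05 and 0.13 in WT mice (2 of 4, with 2 best with their own number). With the replicate block the number called was 0 in tumors, 5 in KO lungs and 0 between KO and WT lungs at 14 days, and with the block and GC offsets 0 in tumors, 3 in WT lungs and 0 in control lungs. KO-host tumors each correlated best with the KO lung of the same number (6 of 6), at 0.05 to 0.18 (over 0.1 in 3 of 6). This is a hint from the data and not from the design, whereas 2 of 6 did in WT hosts, at -0.02 to 0.07. Whether such a tumor and lung came from the same mouse is not stated, and the main fit of all 32 samples did not pair them. *Mvd*, *Mvk* and *Hsd17b7* were under 10 CPM in some libraries and above it in others, and the part of depth in their values was not tested.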
